A study of Mus musculus with 6 samples.

Results

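Ribosomes are built in the nucleolus, where RNA polymerase I transcribes the ribosomal RNA precursor and a large set of assembly factors modifies, cuts and folds it. Small nucleolar ribonucleoproteins (snoRNPs) guide its modification, the small-subunit (SSU) processome forms the early 40S precursor, and other factors carry the precursors of the 40S and 60S subunits out of the nucleus. MYC, a transcription factor that works with its partner MAX, is known for raising the transcription of many of these factors in growing cells.

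The 38 genes described here are Myc and 37 nucleolar factors of ribosome biogenesis, found by symbol among the 35976 symbols of the count table. All 38 had a row, and 37 passed the filter on low counts. Myc did not. The cells were RAW264.7, a mouse macrophage-like line transformed with Abelson leukemia virus, in 3 untreated libraries (control) and 3 libraries from cells given itaconate for 24 h. Activated macrophages make itaconate, a dicarboxylate, from an intermediate of the citric acid cycle. Polyadenylated RNA was counted near its 3′ end, and the labels name no dose, no vehicle and no form of the compound. Whether each library had its own culture is also not stated, so p-values reflect only how far these libraries vary, which may be technical variation. Since all libraries came from bulk RNA, fewer cells with a transcript and less of it per cell cannot be told apart. Levels are given as CPM, counts scaled to a common library size after TMM normalisation, and differences as log2 fold changes of itaconate over control.

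The libraries held 5202626 to 6098934 counts. Of 10 macrophage markers, none was at or under 3 counts in every library, while the fixed markers of epithelium, of neutrophils and mast cells, of B cells, of T and NK cells and of fibroblasts each summed to at most 2.85 CPM in any library. The summed macrophage markers ran from 7910 to 9080 CPM in control and from 5820 to 6200 CPM in itaconate libraries. Mean Csf1r went from 3693 to 1837 CPM and mean Cd14 from 1507 to 776.9 CPM. Mean Cd68 went the other way, from 1095 to 1346 CPM, and each of the remaining markers had a lower mean with itaconate. The part of these marker differences in the results below was not tested. The 38 members together took 0.610% to 0.621% of all counts in the control libraries and 0.510% to 0.551% in the itaconate libraries. These groups did not overlap. The shares are of raw counts, without TMM, whose factors were 1.01 to 1.03 in control and 0.968 to 0.989 in itaconate libraries. The part of that offset in the lower shares was not tested. Ncl and Npm1 supplied 36.1% to 39.4% of the members' counts in every library, so these shares lean on that pair.

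Most transcripts of nucleolar factors were not called as different after itaconate, and all estimates were under 1 on the log2 scale. With edgeR's quasi-likelihood test at a Benjamini-Hochberg adjusted p under 0.05, 7 of the 37 tested members fell, 1 rose and 29 were not called. Of all 10636 genes tested, 21.9% were called, 11.2% as lower and 10.7% as higher. The members' 8 calls, or 21.6%, lie near that background, with a larger share lower (18.9%) and a smaller share higher. The members that fell were Ncl, Nolc1, Polr1a, Nop58, Dkc1, Gar1 and Wdr12, and the member that rose was Nob1. The median log2 fold change of the 37 was -0.15, against -0.01 over all tested genes, and 27 were negative, 73.0% against 50.8% of all tested genes. For 35 of the 37 the 95% interval of the difference lay wholly between -1 and 1. That held for 67.0% of all tested genes. The exceptions were Polr1b and Fbl, whose intervals reached -1.40 and -1.05.

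**Figure D1:**
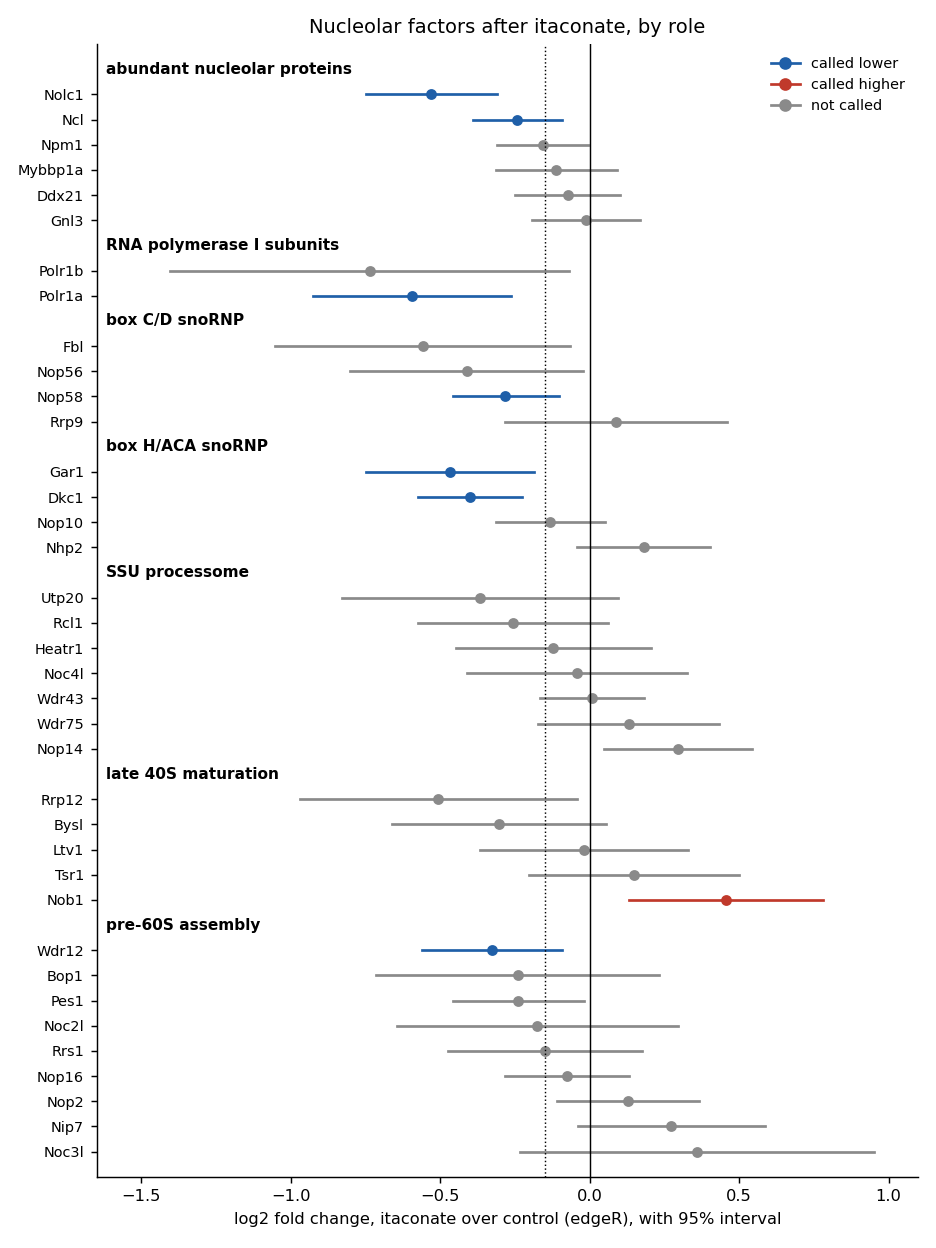
Log2 fold change of itaconate over control (x axis) for the 37 tested members, grouped by role. Points are edgeR estimates, lines their 95% intervals, blue and red mark called members, and the dotted line marks the members' median of -0.15. Members of the RNA polymerase I and snoRNP groups lie mostly left of 0, and those of the SSU processome lie on either side of it.

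RNA polymerase I makes the ribosomal RNA precursor, and 2 of its subunits are members. Polr1a, which encodes the largest catalytic subunit, lies on chromosome 6 from 71909053 to 71984935 (GRCm38, GENCODE M21). It stood at 46.5, 57.7 and 52.8 CPM in the control libraries and at 30.3, 33.8 and 39.7 CPM in the itaconate libraries. Every itaconate library was below every control library. The log2 fold change was -0.60 ± 0.17 (SE, edgeR adjusted p = 0.0056), a fall by 33.8%. Polr1b, the second-largest subunit, had 11.6, 15.6 and 10.6 CPM in control and 5.08, 10.1 and 7.52 CPM in itaconate libraries. Its groups did not overlap either, but the difference of -0.74 ± 0.33 did not pass (edgeR adjusted p = 0.111). Its count is uncertain, since 18.9% of the 50-base stretches in the last 400 bases of its transcripts also occur in transcripts of other genes. Among 12 other tested genes of the polymerase I machinery the median was -0.03. Of these, 1 was lower (8.33%, against 11.2% over all tested genes) and 0 higher. It was Ubtf, which encodes the factor that binds ribosomal DNA and recruits the polymerase, at 80.2, 82.7 and 93.9 CPM in control and 50.5, 54.8 and 66.1 CPM in itaconate libraries (-0.58 ± 0.14, edgeR adjusted p = 0.000901). The remaining 11 were not called.

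Box H/ACA snoRNPs convert uridines of ribosomal RNA to pseudouridine. Dkc1, whose product dyskerin is the pseudouridine synthase, is on chromosome X from 75095854 to 75109777. Its levels were 376.8, 367.1 and 364.8 CPM in control and 293.8, 293.4 and 252.7 CPM in itaconate libraries, so that the groups lay well apart. The difference was -0.40 ± 0.09 (SE, edgeR adjusted p = 0.000315). Gar1, the gene of another core protein of these particles (chromosome 3, 129824912 to 129831396), went from 68.5, 70.3 and 80.2 CPM to 47.3, 51.8 and 59.1 CPM. Its log2 fold change was -0.47 ± 0.14 (edgeR adjusted p = 0.0111). The remaining core protein genes were not called. Nop10 had -0.13 (95% interval -0.32 to 0.05) and Nhp2 had 0.18 (-0.04 to 0.40). Of the 4 core subunits, 3 had negative estimates and 1 a positive one.

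Box C/D snoRNPs guide 2′-O-methylation. Nop58, a core scaffold gene on chromosome 1 from 59684971 to 59719044, stood at 293.6, 264.3 and 288.6 CPM in control and at 230.9, 240.9 and 224.5 CPM in itaconate libraries. It fell by 0.28 ± 0.09 (SE, edgeR adjusted p = 0.0156), without overlap between the groups. Its partner Nop56 and the methyltransferase fibrillarin (Fbl) had estimates further from 0, -0.41 ± 0.19 and -0.56 ± 0.25, and neither passed (edgeR adjusted p = 0.128 and 0.1). Fbl had 22.3, 22.7 and 18.1 CPM in control against 16.95, 11.4 and 14.5 CPM in itaconate libraries, and again every itaconate library was lower. Rrp9, a protein specific to the U3 particle, was not called at 0.09 (95% interval -0.28 to 0.46). Counts of Fbl and Nop56 are uncertain, since 66.9% and 40.6% of their searched 3′ stretches are shared with other genes.

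**Figure D2:**
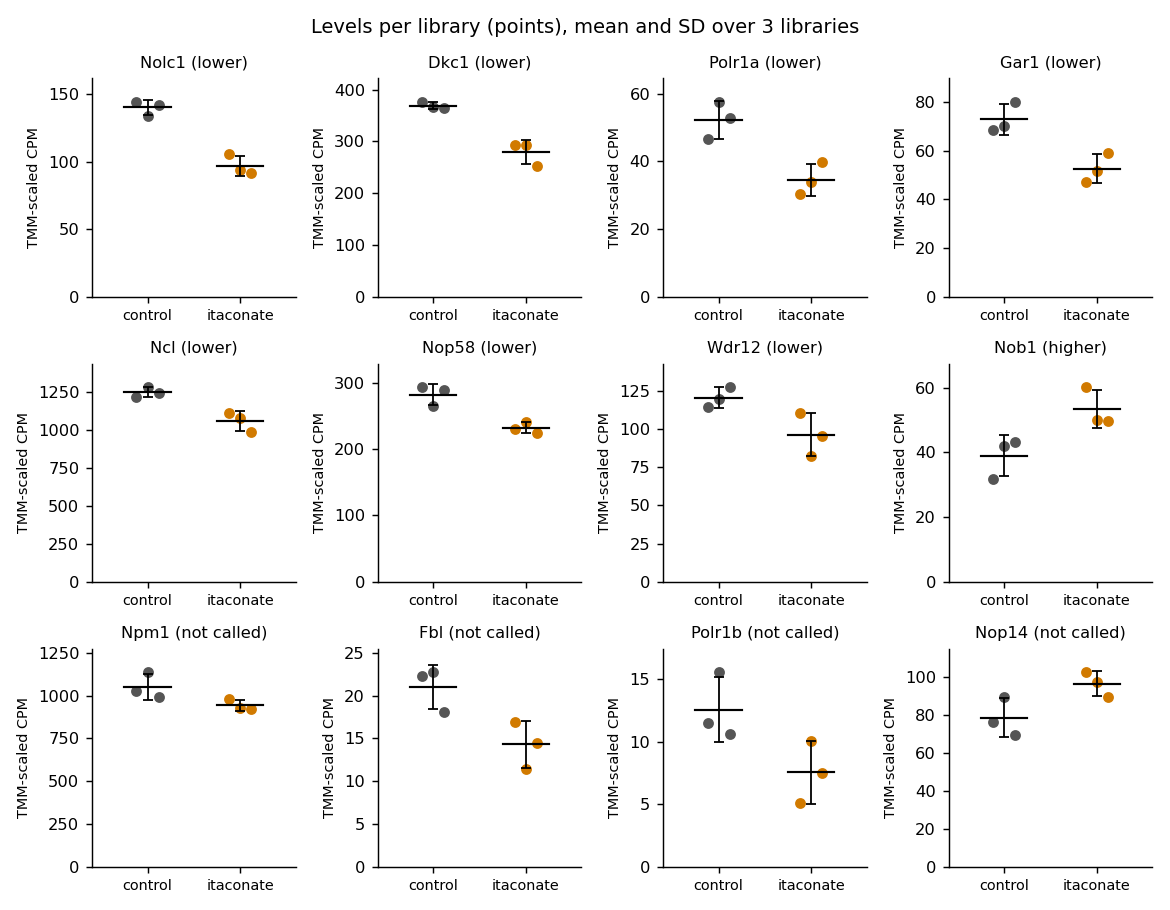
TMM-scaled CPM (y axis, from 0) in each of 3 control and 3 itaconate libraries for the 8 called members and for Npm1, Fbl, Polr1b and Nop14, which were not called. Points are libraries, bars the mean with SD. In the 8 called members the groups do not overlap, with Dkc1 between 364.8 and 376.8 CPM in control and between 252.7 and 293.8 CPM in itaconate libraries.

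The abundant nucleolar proteins include chaperones and organisers of the nucleolus. Nolc1, whose product Nopp140 ties snoRNPs to the nucleolus and Cajal bodies, showed the smallest p among the members. The gene, on chromosome 19 from 46075863 to 46085530, gave 144.5, 134.3 and 142.2 CPM in control and 105.6, 94.2 and 91.8 CPM in itaconate libraries. The groups lay far apart. Nolc1 fell by 30.7%, a log2 fold change of -0.53 ± 0.11 (SE, edgeR adjusted p = 0.000174). Ncl, which encodes nucleolin (chromosome 1, 86344719 to 86359400), fell by 15.4%, from 1251 ± 33.5 to 1058 ± 65.7 CPM (SD, n = 3). Its log2 fold change was -0.24 ± 0.07 (edgeR adjusted p = 0.0127). Npm1, the gene of nucleophosmin, had 1027, 1137 and 990.4 CPM in control and 980.7, 925.3 and 922.2 CPM in itaconate libraries. Its groups were only just apart and it was not called (-0.16 ± 0.08, edgeR adjusted p = 0.133). With library totals in place of TMM, Npm1 was called lower (-0.21, edgeR adjusted p = 0.0284). Npm1 is uncertain because 16.4% of its searched 3′ stretches occur in 6 other genes. The RNA helicase gene Ddx21 (-0.07), the nucleostemin gene Gnl3 (-0.01) and Mybbp1a (-0.11), which encodes an MYB-binding nucleolar protein, were not called. Mybbp1a shares 23.4% of its searched 3′ stretches with Spns2 on the opposite strand. The interval of Gnl3 ran from -0.19 to 0.17.

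None of the 7 SSU processome members was called with edgeR, and 1 of them, Nop14, had an unadjusted p under 0.05. DESeq2 also called none of the 7. With edgeR 21.9% of all tested genes were called, and 0 of 7 does not set this group apart from that share. The difference between role groups was not tested. Nop14 had 76.5, 89.8 and 69.6 CPM in control and 102.8, 97.7 and 89.5 CPM in itaconate libraries, and the groups touched. Its estimate was 0.30 ± 0.12 (edgeR adjusted p = 0.0802). Wdr43 stood at 349.4, 313.2 and 319.1 CPM in control and at 348.0, 305.9 and 332.9 CPM in itaconate libraries, with an interval from -0.17 to 0.18 around 0.01. The other members, Heatr1, Utp20, Wdr75, Noc4l and Rcl1, had estimates between -0.37 and 0.13. In a list of 38 other tested processome genes, 2 rose (Esf1 by 0.48 and Cirh1a, also called Utp4, by 0.46), 1 fell (the GTPase gene Bms1, by 0.34) and 35 were not called, with a median of -0.03. Cirh1a was not called when control replicate 1 or 3 or itaconate replicate 1 or 2 was left out (adjusted p 0.0641 to 0.0925). Bms1 was not called with DESeq2 (0.126), without the filter (0.0504) or when any 1 control library (0.0931 to 0.113) or itaconate replicate 3 (0.349) was left out, and with library totals 2 of the list were lower.

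Of 5 members that act late on the 40S precursor, Nob1 rose, or 20.0% against 10.7% higher over all tested genes. NOB1 is the endonuclease that makes the last cut at the 3′ end of 18S ribosomal RNA, and its gene is on chromosome 8 from 107412486 to 107425051. The control libraries held 31.6, 42.1 and 43.1 CPM and the itaconate libraries 60.3, 50.1 and 49.8 CPM, without overlap. The log2 fold change was 0.46 ± 0.16 (SE, edgeR adjusted p = 0.0361). Rrp12 had the opposite sign at -0.51 ± 0.23 and was not called (edgeR adjusted p = 0.114), although its libraries did not overlap. Tsr1 (0.15), Ltv1 (-0.02) and Bysl (-0.30) were not called. Without itaconate replicate 2, Bysl was called lower (-0.55, edgeR adjusted p = 0.0455). In Bysl, 88.9% of the searched 3′ stretches are shared with Ccnd3, which lies on the opposite strand, and in Tsr1 47% are shared with Srr, arranged likewise. A list of 14 other tested genes, drawn up for late 40S maturation, also holds genes with other roles, among them the exonuclease gene Eri1. On that list the kinase gene Riok3 rose by 0.61 ± 0.12, from 97.95 to 149.4 CPM (edgeR adjusted p = 5.66e-05). Eri1 fell by 0.46 ± 0.15 (edgeR adjusted p = 0.0212). Eri1 was not called with DESeq2 (0.0546), without control replicate 2 (0.157) or without itaconate replicate 1 (0.132).

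Of the 9 members that build the 60S precursor, Wdr12 fell and 8 were not called. The share lower was 11.1%, against 11.2% over all tested genes. WDR12 forms the PeBoW complex with PES1 and BOP1. Its transcript, from chromosome 1, 60069785 to 60098645, stood at 114.5, 119.9 and 127.6 CPM in control and at 110.7, 82.4 and 95.5 CPM in itaconate libraries, so itaconate replicate 1 lay just under the controls. The fall was by 0.33 ± 0.12 (SE, edgeR adjusted p = 0.0358). This count too is uncertain, because 17.7% of the searched 3′ stretches occur in 3 other genes. The other PeBoW genes had nearly the same estimate, Pes1 at -0.24 ± 0.11 and Bop1 at -0.24 ± 0.24, without passing (edgeR adjusted p = 0.117 and 0.53). Pes1 was called lower with library totals (-0.29, edgeR adjusted p = 0.0469) and without itaconate replicate 3 (-0.35, 0.0215). Bop1 varied most within the itaconate group, with 35.8, 18.3 and 15.2 CPM, and was called lower without itaconate replicate 1 (-0.70, edgeR adjusted p = 0.0367). Over the 13 alternative fits its estimate ran from -0.701 to -0.009, with adjusted p up to 0.988. Nop2, a 28S ribosomal RNA methyltransferase gene, had 0.13, Nop16 -0.08, Rrs1 -0.15, Noc2l -0.18, Noc3l 0.36 and Nip7 0.27. Nip7 lay higher in every itaconate library (50.7, 59.98 and 47.7 CPM) than in any control library (40.2, 46.5 and 44.4 CPM) but was not called (edgeR adjusted p = 0.225). All searched 3′ stretches of Noc2l are shared, mostly with Samd11 on the opposite strand.

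In a list of 51 other 60S assembly genes, 4 fell, 2 rose and 45 were not called, with a median of -0.02. The shares were 7.84% lower and 3.92% higher, against 11.2% and 10.7% over all tested genes. The helicase gene Ddx24 fell from 402.1, 395.8 and 349.8 CPM to 261.4, 270.0 and 248.5 CPM (-0.56 ± 0.09, edgeR adjusted p = 1.21e-06). Gltscr2, also known as Nop53, fell by 0.38 ± 0.10 (edgeR adjusted p = 0.00217), but without control replicate 2 it was not called (0.055). Tma16, the gene of a late 60S factor, rose by 0.95 ± 0.17, from 28.4 to 55.2 CPM on average (edgeR adjusted p = 1.42e-05). The number of lower genes in this list was 2 with DESeq2 and without control replicate 1, and 1 without control replicate 2. In 7 of the 13 alternatives 1 gene of it was higher.

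In 12 of the 37 tested members every itaconate library lay below every control library, and in 2 every one lay above. Over all tested genes, 35.6% were separated, 17.9% downwards and 17.6% upwards. The members separated downwards but not called were Npm1, Polr1b, Fbl, Nop56 and Rrp12. At an unadjusted p under 0.05, 15 members passed, 13 of them lower, against 32.2% of all tested genes in either direction and 16.2% as lower.

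Calls differed in how far they rested on single libraries. Nolc1 and Dkc1 were called lower under all 13 alternative fits. Ncl was not called without control replicate 2 (edgeR adjusted p = 0.0783) or itaconate replicate 3 (0.0631), nor Polr1a without control replicate 2 (0.0517). Nop58 was lost without control replicate 1 (0.0711) or 3 (0.0541), and Gar1 without control replicate 3 (0.0744) or itaconate replicate 1 (0.0682). For Wdr12 the call was lost with DESeq2 (0.0854) and without control replicate 2 (0.0881) or 3 (0.132), or itaconate replicate 2 (0.26) or 3 (0.0635). Nob1 was lost with DESeq2 (0.0842), with library totals in place of TMM (0.0726) and when control replicate 1 (0.208) or itaconate replicate 1 (0.183) or 2 (0.051) was left out. The number of members called lower was 4 without control replicate 2 and 4 without control replicate 3. Members called higher numbered 0 when control replicate 1 or itaconate replicate 1 or 2 was left out, and 2 without control replicate 2, where Nop14 joined.

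Myc itself was almost undetected in these libraries. The control libraries held 3, 0 and 0 counts and the itaconate libraries 0, 4 and 4. A count of 3, the floor used here, corresponds to between 0.487 and 0.565 CPM. The ratio of the summed counts, 8 over 3, was 2.85 after scaling for library size. Its 95% Clopper-Pearson interval ran from 0.683 to 16.7, so no difference was detectable at this depth. Such an interval takes in counting error alone, because the reads carry no molecular identifiers and may repeat a molecule. The gene lies on chromosome 15 from 61985391 to 61990374, and 0% of its searched 3′ stretches occur in other genes. Mycl had 0 counts in all 6 libraries, which allows up to 3 counts per library.

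Mycn, the neuronal MYC family gene, was the family member with enough counts to test, and it fell. It lies on chromosome 12 from 12936093 to 12941914. Levels were 180.0, 205.0 and 218.9 CPM in control and 128.2, 115.5 and 129.6 CPM in itaconate libraries, with a wide gap between the groups. The log2 fold change was -0.69 ± 0.10 (SE, edgeR adjusted p = 3.32e-07), or a fall by 38.1%, and it was called under all 13 alternative fits, at -0.77 to -0.63. The gene was on the list of MYC partners and antagonists. Of the list's 10 tested genes 2 were lower (20.0%, against 11.2% over all tested genes) and 0 higher. The other was Mxd4, the gene of a repressor that competes for MAX, at 11.2, 10.9 and 10.1 CPM in control and 4.71, 5.05 and 5.95 CPM in itaconate libraries (-1.03 ± 0.36, edgeR adjusted p = 0.0341). Mxd4 was not called in 7 of 13 alternatives, among them no filter, DESeq2 and the fits without any 1 control library or without itaconate replicate 1 or 2, with adjusted p up to 0.0957. Part of its 3′ end (43.9% of searched stretches) is shared with Gm42846 on the opposite strand. Max had 115.3, 146.7 and 146.8 CPM in control and 122.2, 98.1 and 116.8 CPM in itaconate libraries, which overlap, and was not called (-0.28 ± 0.11, edgeR adjusted p = 0.0732). It was called lower without control replicate 1 (0.0202) and with library totals (0.0299). The antagonist genes Mxi1 (0.18 ± 0.11) and Mnt (0.05 ± 0.14) were not called. Mxd3 was too low to be tested, with 10, 13 and 11 counts in control and 0, 2 and 0 in itaconate libraries. Scaled for library size, the ratio of the summed counts was 0.0628, with a 95% Clopper-Pearson interval from 0.00731 to 0.245. That interval, too, takes in counting error alone and not the variation between libraries. Of the searched 3′ stretches of Mxd3, 16% are shared with Prelid1 on the opposite strand.

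**Figure D3:**
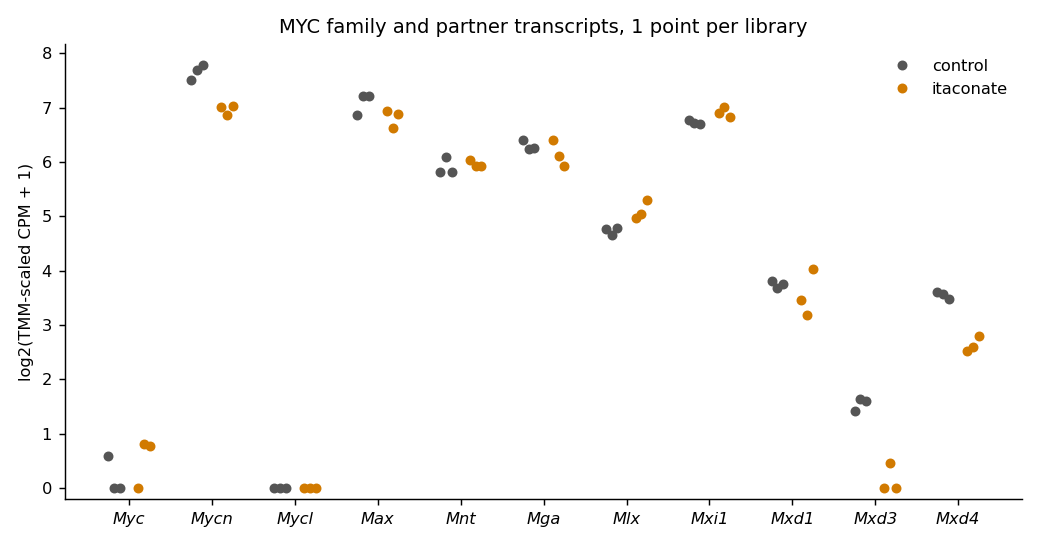
Levels of MYC family and partner transcripts as log2(TMM-scaled CPM + 1) on the y axis, with 1 point per library. Mycn lies between 180.0 and 218.9 CPM in control and between 115.5 and 129.6 CPM in itaconate libraries, while Myc and Mycl lie at or near 0.

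Genes on a list of other known MYC-responsive genes, beyond the members and the assembly factors, gave 5 lower and 2 higher of 30 tested. These are 16.7% and 6.67%, against 11.2% lower and 10.7% higher over all tested genes. The median of the list was -0.15. Pa2g4, a growth-associated nucleolar and cytoplasmic protein gene, fell from 715.3, 683.8 and 669.8 CPM to 523.1, 564.3 and 561.3 CPM (-0.33 ± 0.08, edgeR adjusted p = 0.00107). Impdh2, the rate-limiting enzyme gene of guanine nucleotide synthesis, fell by 0.65 ± 0.12 (edgeR adjusted p = 1.96e-05), but 88.4% of its searched 3′ stretches occur in a pseudogene. Mthfd2, of mitochondrial one-carbon metabolism, rose by 0.33 ± 0.09 (edgeR adjusted p = 0.00297). With DESeq2, or without control replicate 2 or 3, 2 of the list were lower, and 3 without itaconate replicate 1. In 9 of the 13 alternatives 1 of it was higher.

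The MYC-MAX dimer binds the E-box CACGTG, which reads the same on either strand. RefSeq promoters of GRCm38.p6, from 250 bases before to 50 after a gene's start, were matched for 32 of the 38 members. The E-box was present in 7 of these 32 (21.9%) and in 8.09% of the 27025 genes with an entry, where a gene with several starts counts once. That background includes genes with too few counts to be tested, while all 32 members were tested. The share among tested genes was not determined. The 7 members with the E-box were Mybbp1a, Utp20, Wdr43, Tsr1, Ltv1, Pes1 and Nop2. In the edgeR fit of all 6 libraries with TMM, 0 of them were called. The 8 called members were among the 25 without it, and 1 of the 7, Pes1, had an unadjusted p under 0.05. Pes1 was called lower with library totals (edgeR adjusted p = 0.0469) and without itaconate replicate 3 (0.0215). Beside the 21.9% called over all tested genes, a count of 0 among 7 does not set the genes with the motif apart, and the difference between the groups was not tested. The following promoters show where the motif sits in 3 of the 7, Nop2 with a match before the start and Pes1 and Wdr43 with matches just after it, beside those of the strongly called Dkc1 and of Ncl, which lack it in this window. The E-box is in capitals, and sequences run 5′ to 3′ along the gene.
Nop2: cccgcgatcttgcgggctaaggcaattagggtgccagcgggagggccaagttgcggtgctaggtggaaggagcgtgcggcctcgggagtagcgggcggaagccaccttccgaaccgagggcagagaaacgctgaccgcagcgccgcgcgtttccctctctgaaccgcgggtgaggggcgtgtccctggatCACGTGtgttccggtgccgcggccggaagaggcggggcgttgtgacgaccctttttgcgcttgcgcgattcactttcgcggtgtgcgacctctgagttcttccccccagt
Pes1: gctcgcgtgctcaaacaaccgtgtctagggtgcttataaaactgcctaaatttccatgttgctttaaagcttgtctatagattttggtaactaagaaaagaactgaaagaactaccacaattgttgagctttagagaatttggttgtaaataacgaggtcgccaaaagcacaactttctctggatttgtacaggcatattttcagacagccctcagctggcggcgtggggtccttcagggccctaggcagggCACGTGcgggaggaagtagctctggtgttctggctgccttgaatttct
Wdr43: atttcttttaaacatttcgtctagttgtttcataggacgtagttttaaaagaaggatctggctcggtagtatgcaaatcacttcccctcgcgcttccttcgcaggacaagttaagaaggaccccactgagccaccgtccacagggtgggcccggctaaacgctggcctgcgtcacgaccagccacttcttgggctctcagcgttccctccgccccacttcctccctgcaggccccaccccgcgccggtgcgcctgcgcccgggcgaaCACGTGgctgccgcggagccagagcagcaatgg
Dkc1: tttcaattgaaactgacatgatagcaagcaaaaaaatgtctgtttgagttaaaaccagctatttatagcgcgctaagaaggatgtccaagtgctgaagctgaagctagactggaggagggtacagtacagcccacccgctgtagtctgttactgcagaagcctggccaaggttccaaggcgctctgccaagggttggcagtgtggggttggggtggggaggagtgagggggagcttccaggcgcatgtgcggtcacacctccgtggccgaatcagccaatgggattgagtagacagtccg
Ncl: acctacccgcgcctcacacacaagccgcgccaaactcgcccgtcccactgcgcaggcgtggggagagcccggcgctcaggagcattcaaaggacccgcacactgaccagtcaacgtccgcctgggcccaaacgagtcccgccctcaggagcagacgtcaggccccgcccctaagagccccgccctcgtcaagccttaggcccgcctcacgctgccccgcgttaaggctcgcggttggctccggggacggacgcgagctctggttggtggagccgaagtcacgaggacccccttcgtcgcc
In Nop2, on chromosome 6 (window 125131633 to 125131932, plus strand), the E-box starts at position -60 from the start base. In Pes1 (chromosome 11, 3963725 to 3964024, plus strand) it starts at position 2, just after the RefSeq start. In Wdr43 (chromosome 17, 71615965 to 71616264, plus strand) it starts at position 17 by the RefSeq start. GENCODE M21 places the start of Wdr43 at 71615895, before this whole window, so by that start the E-box lies further inside the gene. In Tsr1, Ltv1, Utp20 and Mybbp1a, not printed, the E-box starts at positions 24, 28, 37 and 40. The windows of Dkc1 (chromosome X, 75095604 to 75095903, plus strand) and Ncl (chromosome 1, 86359406 to 86359705, minus strand) hold no CACGTG. The Ncl window lies wholly upstream of the gene's start in GENCODE M21, at 86359400. Bases after that start were therefore not searched in Ncl. A match here is a sequence of letters and not a measured binding site.

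Several members carry snoRNA genes inside their introns or exons, so that a single transcript serves ribosome assembly in 2 ways. In GENCODE M21, 7 of 38 members (18.4%) enclose 21 annotated snoRNA genes on the same strand, against 259 of 21951 protein-coding genes (1.18%). They are Ncl, Gnl3, Nop56, Nop58, Dkc1, Wdr43 and Tsr1. Of these hosts, 3 fell (Ncl, Nop58 and Dkc1) and 0 rose, with estimates from -0.41 to 0.15. Among the 31 other members, 4 fell and 1 rose. Over all tested genes 11.2% were lower and 10.7% higher, and the difference between hosts and other members was not tested. The snoRNAs themselves have no poly(A) tail and are not measured by this assay. In a list of 12 non-coding host transcripts, 5 fell, 0 rose and 7 were not called (41.7% lower), with a median of -0.19. Gas5 went from 816.2, 877.8 and 890.4 CPM to 675.5, 718.4 and 733.7 CPM (-0.28 ± 0.08, edgeR adjusted p = 0.00445). Snhg1 fell by 0.40 ± 0.12 (edgeR adjusted p = 0.00989). Snhg15 fell by 0.61 ± 0.18 (edgeR adjusted p = 0.00898), and was not called when control replicate 3 (0.0637), itaconate replicate 2 (0.0888) or itaconate replicate 3 (0.0552) was left out. Its libraries overlapped. The number of lower hosts was 2 without itaconate replicate 2 and 3 when control replicate 1 or 3 or itaconate replicate 1 was left out.

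The RNA exosome trims ribosomal RNA precursors from their 3′ ends. Of its 13 tested genes 3 fell, 0 rose and 10 were not called, with a median of -0.35. That is 23.1% lower, against 11.2% of all tested genes. The subunit gene Exosc8 fell by 1.30 ± 0.29 (SE, edgeR adjusted p = 0.000458), from 19.9, 16.4 and 20.9 CPM to 6.78, 8.60 and 7.87 CPM. Its exons overlap Supt20 on the opposite strand. Exosc6 fell by 0.77 ± 0.18 (edgeR adjusted p = 0.000854), but all of its searched 3′ stretches are shared with Aars on the same strand, so its count is uncertain. The exonuclease gene Dis3 (-0.43 ± 0.16, edgeR adjusted p = 0.0466) was not called in 9 of 13 alternatives, including DESeq2 (0.0832), the fit with replicate numbers as a block (0.0523) and each fit without 1 library (0.0566 to 0.142).

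The ribosomal proteins are what these factors assemble into subunits. Of 79 tested genes of cytosolic ribosomal proteins, 5 were lower, 0 higher and 74 not called with edgeR. The lower genes made up 6.33%, against 11.2% of all tested genes. Of the 79, 10 had an unadjusted p under 0.05, and the median was -0.03. For 78 of the 79 the 95% interval lay between -1 and 1. Rps13 stood at 2208, 2113 and 1876 CPM in control and at 1748, 1665 and 1659 CPM in itaconate libraries (-0.29 ± 0.07, edgeR adjusted p = 0.00211). Rps29 (-0.22) and Rpl15 (-0.50) were also lower, but neither was called when control replicate 1 or 2 or itaconate replicate 2 was left out, nor was Rpl15 with DESeq2 (0.0752) or without itaconate replicate 3 (0.146). Ribosomal protein genes have many processed copies, and 35.8% to 56.1% of the searched 3′ stretches of these 3 genes occur elsewhere. The count of lower genes ran from 1 (without control replicate 1 or itaconate replicate 2) and 2 (without control replicate 2) to 8 (without control replicate 3) and 9 (library totals). DESeq2, limma-voom and the fit without control replicate 1 each called 1 higher. RNA polymerase III, which makes 5S ribosomal RNA, had 0 called of 15 tested genes with edgeR and a median of 0.03, and 2 of the 15 had an unadjusted p under 0.05. Without itaconate replicate 3, 1 of them was higher.

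Genes of cell proliferation, listed to show the growth state of the same libraries, fell throughout. All 12 on the list fell, with a median of -2.20. Top2a, the topoisomerase gene of dividing cells, went from 281.9, 258.1 and 288.5 CPM to 49.3, 51.4 and 61.6 CPM, and Mcm7 and Ccna2 fell by 2.37 and 3.82 on the log2 scale. The smallest fall on that list (-0.985, Pcna) was larger than the lowest estimate among the nucleolar members (-0.74, Polr1b). The part of this change in the members' values was not tested.

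**Figure D4:**
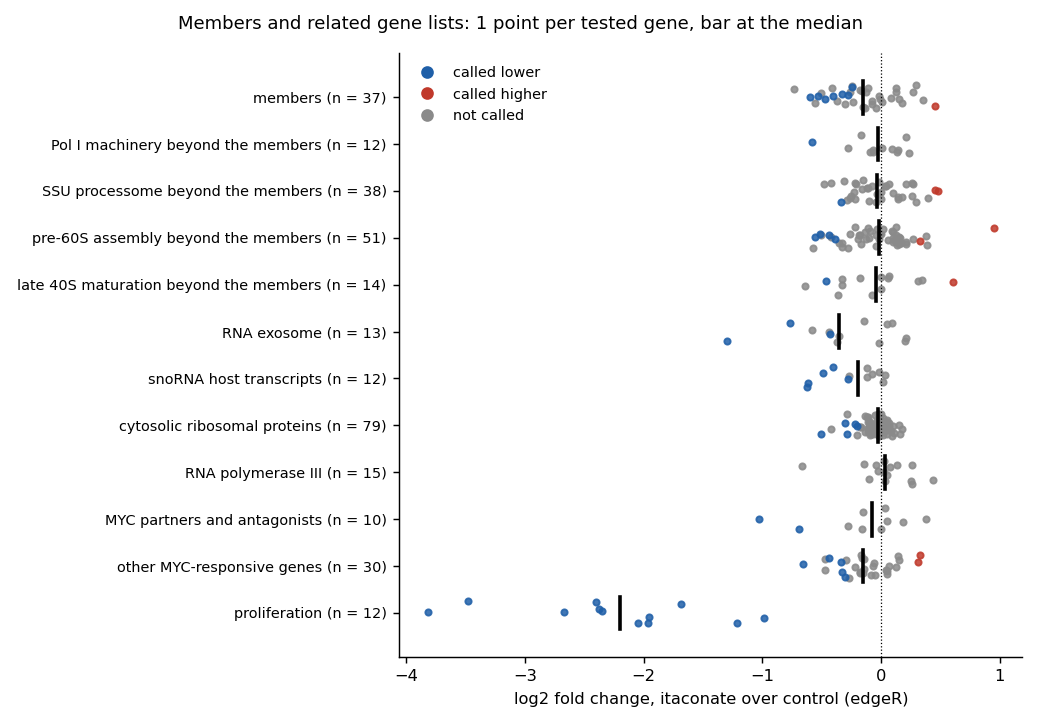
Log2 fold change of itaconate over control (x axis) for each tested gene of the members and of 11 related lists, with the median as a black bar and called genes in colour. The members' median is -0.15, that of cytosolic ribosomal proteins -0.03, and that of the proliferation list -2.20.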

How the data were processed

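Raw counts per gene symbol were deposited by the authors, not normalized, for 6 RAW264.7 libraries prepared, per the labels' protocols, with Lexogen's QuantSeq FWD 3′ kit. In the submitters' processing notes the build mm10 is listed with HTSeq 0.6.1, STAR 2.7.5a and edgeR. Not given in the sources used here are the strand setting, annotation version and handling of multi-mapped reads. Header names were matched to sample titles, and groups came from the treatment label. All 6 columns were used.

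Genes were kept with edgeR's filterByExpr (minimum count 10, minimum total 15), leaving 10636 genes with 99.74% of counts. Libraries were scaled by TMM and tested with edgeR 4.0.16 (R 4.3.3, quasi-likelihood F test, robust, group as the only term, two-sided, Benjamini-Hochberg over all tested genes, threshold 0.05). The SE is the absolute log2 fold change over the square root of F. The procedure was run on counts simulated from the means and dispersions of these libraries. Such a run cannot check whether that model holds for them. Totals of 5202626 to 6098934 counts put the floor of 3 counts at 0.487 to 0.565 CPM.

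Alternatives were DESeq2 1.42.0, limma-voom (limma 3.58.1), other scalings and filters, a replicate block and leaving out each library. Every member was described. From each other list, up to 3 called genes with the smallest p were named, plus genes needed for an exception. Members and lists were chosen with earlier results of these data known. Max, Mxi1, Mnt and the untested Mycl and Mxd3 were named after their values were seen. Positions, overlaps, 3′ sequence sharing (exact 50-base matches in the last 400 bases) and nested snoRNAs came from GENCODE M21 (GRCm38, the assembly mm10 names). Exons of 16 members overlap a gene on the opposite strand, and over 10% of the searched stretches were shared in 9.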

Additional observations from a re-analysis of the deposited data

How the results depend on the processing

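Over 13 alternative fits of the 37 tested members, 2 of the 8 calls (Nolc1 and Dkc1) were kept in every fit, and 5 members not called became called in at least 1. Members called higher numbered 1 with TMM and edgeR, 0 with library totals, 0 with DESeq2 and 0 to 2 when 1 library was left out. Members called lower numbered 7, with 9 under library totals, 6 with DESeq2 and 4 to 7 when 1 library was left out. The median log2 fold change of the members ran from -0.19 to -0.11 over the fits without 1 library and was -0.20 with library totals. Libraries with the same replicate number in their titles showed no clear shared deviation. Their deviations from the group means correlated at -0.0135, 0.0171 and 0.038 for numbers 1, 2 and 3. Whether the samples were paired in the experiment cannot be told from these values. With the replicate block, 1 member was higher and 7 lower, and 1087 genes were higher and 1160 lower in all, against 1133 and 1191 without it.

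Members with estimates near 0 changed sign in some fits without being called, and the cause was not tested. Wdr43 was at -0.045 with library totals. Over the fits that each left out 1 library, the log2 fold change ran from -0.034 to 0.059 for Wdr43, -0.14 to 0.04 for Ddx21, -0.042 to 0.026 for Gnl3, -0.204 to 0.006 for Mybbp1a and -0.034 to 0.239 for Rrp9. It ran from -0.002 to 0.25 for Wdr75, -0.168 to 0.048 for Noc4l, -0.16 to 0.092 for Ltv1, -0.335 to 0.018 for Rrs1 and -0.42 to 0.089 for Noc2l. Polr1b and Fbl, whose intervals reach past -1, had 5.08 to 15.6 and 11.4 to 22.7 CPM per library, and the part of depth in the width of these intervals was not tested.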
